A study of Mus musculus with 10 samples.

Results

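CD4 T cells that carry CD25 but do not express Foxp3 were compared between mice given interleukin-2 (IL-2) and untreated mice. The cells were GFP- CD25+ CD4+ cells of Foxp3(gfp/gfp) mice, in which GFP marks cells that make Foxp3, and they are called CD25pos cells here. The comparison rests on 2 of the 10 arrays of the series, 1 per state, which were chosen by their titles. No group had a replicate, so no difference could be set against a spread between replicates, and no test was made.

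IL-2-treated CD25pos cells came from mice given 50 ng per g of IL-2 in each of 4 injections within 24 h, with cells isolated 30 min after the last. Untreated CD25pos cells came from mice of the same line, and their labels do not say whether the mice received the saline vehicle. Both groups were female, 6 to 8 weeks old, and backcrossed for 8 to 10 generations from 129/Sv to C57BL/6. Lymph node and spleen were pooled, and the labels do not give the number of mice behind an array. Of the other sorted cells of the series, GFP+ CD4+ cells of the same line (GFPfoxp3 cells, which make Foxp3) were measured after the same IL-2 treatment and untreated. So were GFP+ CD4+ cells of Foxp3(gfpko/wt) mice (GFPko cells), a line backcrossed for 5 generations, whose gfpko allele reports the Foxp3 locus without making Foxp3 protein. GFP- CD25- CD4+ cells of Foxp3(gfp/gfp) mice (CD25neg cells) were measured untreated. The remaining arrays, of cells carrying retroviral vectors, entered the comparison only through the joint normalization and the choice of probe set.

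IL-2 binds a receptor of an alpha chain (CD25, encoded by Il2ra), a beta chain and a common gamma chain. The kinases JAK1 and JAK3 bound to these chains phosphorylate STAT5, which enters the nucleus and induces feedback inhibitors such as Cish, survival and growth genes and, in many T cells, Il2ra itself. In conventional T cells IL-2 drives entry into the cell cycle, and it is known to favour cytotoxic and effector genes over Bcl6 and the follicular helper program.

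The values are the log2 levels that the authors deposited for an Affymetrix mouse 430 2.0 array, and a log2 difference of 1 is a 2-fold difference. A gene was counted as past 2-fold, and is called higher or lower, where the arrays differed by at least that much and the brighter array reached the median of all its probe sets, taken as the background. The medians of the IL-2-treated and untreated CD25pos arrays were 3.07 and 3.07. The sort was checked first. Cd4 had a level of 10.43 in IL-2-treated and 10.45 in untreated CD25pos cells. Foxp3 had 2.85 in IL-2-treated CD25pos cells and 3.90 in untreated CD25pos cells, against 10.86 in GFPfoxp3 cells of either state. Of 15 measured B cell markers 7 reached the median in each state, with a summed linear level of 2383 with IL-2 and 2530 untreated, or 201.1 and 220.1 without Ighm, which carries that sum. Of 14 macrophage and monocyte markers 6 did with IL-2 and 7 untreated, with sums of 8382 and 7525, or 97.84 and 106 without Ctss, and Tyrobp was lower after IL-2, its treated array being below background. Cd79a of B cells (2.46 and 2.46) and Csf1r of macrophages (2.30 and 2.36) lay below the array medians in IL-2-treated and untreated CD25pos cells, and Cd8a was at 3.15 in each. The 3′ minus 5′ difference of the Actb control probe sets, a measure of how far the amplified RNA was shortened, was 2.86 in IL-2-treated and 3.80 in untreated CD25pos cells, and that of Gapdh was 5.24 and 6.43. RNA quality therefore moved with the treatment, and its part in the differences below was not tested.

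Of 11939 genes, 119 were higher after IL-2 (0.997%) and 42 were lower (0.352%). The median difference over all genes was -0.01 and its SD over genes was 0.30, and the 1st and 99th percentiles were -0.78 and 0.99. The higher genes had a median difference of 1.33 and reached 3.23, whereas the lower genes had a median of -1.19 and reached -2.04. Cell cycle genes formed the largest named group of the higher genes. Of the 119, 35 belonged to a list of mitosis genes, 9 to a list of DNA replication genes and 1 to a list of G1 and S phase entry genes, together 37.8% beside 0.812% of all genes. Of the other 74, 32 were placed in chromosome segregation, cytokinesis or cell cycle kinase control and 14 in replication or DNA repair, by roles assigned after the values were seen and to the higher genes alone. Lists and roles together cover 91 of the 119 (76.5%), a share with no counterpart over all genes. None of the 42 lower genes belonged to the 3 lists. In bulk RNA, a larger share of dividing cells and more of these transcripts per cell cannot be told apart.

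**Figure D1:**
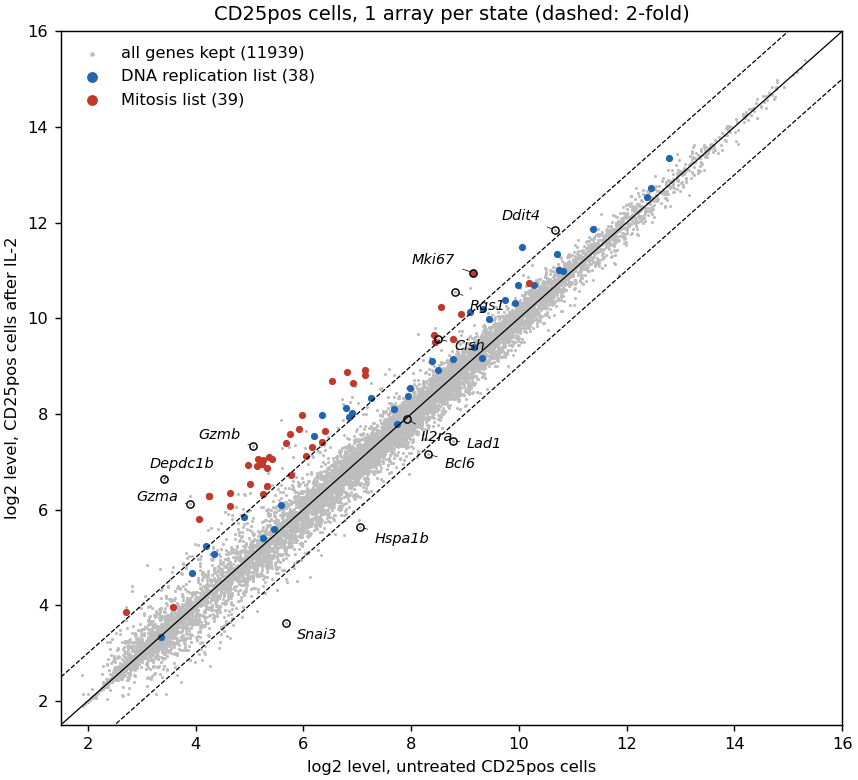
Log2 level of each of 11939 genes in IL-2-treated CD25pos cells (vertical axis) against untreated CD25pos cells (horizontal axis), 1 array each, with dashed lines at a 2-fold difference. Red points are the 39 measured mitosis genes, of which 35 lie past 2-fold above the diagonal, and blue points are the 38 DNA replication genes. Named genes are circled, and points beyond a dashed line but dim on both arrays were not counted.

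The receptor and its signalling chain were examined in 21 measured genes, and 0 of them were past 2-fold in either direction, with a median difference of -0.02. With 0.997% of all genes higher and 0.352% lower, a count of 0 says little of 21 genes. Il2ra, the gene of the CD25 used to gate the cells, had a level of 7.90 in IL-2-treated and 7.91 in untreated CD25pos cells, and its second probe set had 5.62 and 5.71. The first of these probe sets read 11.28 and 9.58 in IL-2-treated and untreated GFPko cells, and 11.56 and 11.11 in IL-2-treated and untreated GFPfoxp3 cells. CD25neg cells had 3.45 on it. Cells were chosen by surface CD25, so a change of Il2ra could also change which cells fell in the gate, and these cannot be told apart here. Il2rb, the beta chain, had 8.92 in IL-2-treated and 9.02 in untreated CD25pos cells. Among the kinases and STAT proteins, Jak1 differed by 0.53 on its brightest probe set (11.04 with IL-2 and 10.50 untreated), but by 0.20 and -0.01 on its others. Stat6, which relays IL-4 signals, differed by -0.33 on its brightest probe set and by 0.10 on its other. Jak3 differed by -0.05, Stat5a by -0.24 and Stat5b by -0.01. The common gamma chain gene was not analysed here.

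Of 32 measured genes that STAT5 is known to induce, 2 were higher (Gzmb and Cish), 1 was lower (Rgs16), and the median difference was -0.01. Over all genes 0.997% were higher and 0.352% lower. Cish, a SOCS-family inhibitor that binds the activated receptor, had a level of 9.56 in IL-2-treated and 8.50 in untreated CD25pos cells, a 2.09-fold difference. It was higher by nearly the same amount in GFPko cells (1.07) and in GFPfoxp3 cells (1.06). The other feedback inhibitors were not past 2-fold. Socs2 had 8.27 with IL-2 and 8.62 untreated, a difference of -0.35, beside 1.15 in GFPko and 0.69 in GFPfoxp3 cells. Socs3 differed by 0.27, and Socs1 lay below background in CD25pos cells at 2.05 and 2.04, and in untreated GFPko and GFPfoxp3 cells, and with IL-2 it was at least 1.75-fold higher in GFPko and at least 1.81-fold higher in GFPfoxp3 cells. Among growth and survival genes Ccnd3, a D-type cyclin, had 9.73 with IL-2 and 8.88 untreated (0.85), with 0.019 in its second probe set. Pim1, a kinase, differed by 0.57 and Myc by 0.21, and Mcl1, a survival gene, by 0.07. The survival gene Bcl2 differed by 0.00 on its brightest probe set, but others gave 0.66 (9.55 with IL-2 and 8.89 untreated) and 1.13 (8.80 and 7.67). The cytokine gene Lta differed by 0.60, beside 3.47 in GFPko cells. At the low end, Dusp5, a phosphatase of ERK, differed by -0.68 and Cd83 by -0.61. Rgs16, which shortens G protein signals, had 5.06 with IL-2 and 6.32 untreated, but its second probe set differed by 0.11.

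The promoters of the higher genes in the STAT5 list that hold the STAT5 motif are printed because they join the signalling list to sequence. Rgs16, the lower gene of the list, was not considered for printing. The letters TTCNNNGAA were searched on both strands from 250 bases before to 50 bases after the first listed transcript start, in RefSeq promoters of GRCm38.p6. The motif stood in 6.88% of the promoters of 9689 measured genes, beside 9.57% of the higher genes (9 of 94), 14.7% of the lower genes (5 of 34) and 24% of the STAT5 list (6 of 25). A match describes letters and is no evidence of binding, and a promoter without one says only that these letters are not in the window. Cish lies at chr9:107296409-107296708 on the plus strand and Gzmb at chr14:56262285-56262584 on the minus strand. Capitals mark the motif, with 2 matches in Cish and 1 in Gzmb, all of them at or downstream of the start in these windows.
Cish: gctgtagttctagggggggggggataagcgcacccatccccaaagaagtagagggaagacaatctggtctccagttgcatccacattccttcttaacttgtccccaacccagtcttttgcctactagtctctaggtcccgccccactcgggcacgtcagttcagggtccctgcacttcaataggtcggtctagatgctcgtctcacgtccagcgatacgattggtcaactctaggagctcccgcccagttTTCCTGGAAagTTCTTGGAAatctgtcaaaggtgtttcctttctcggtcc
Gzmb: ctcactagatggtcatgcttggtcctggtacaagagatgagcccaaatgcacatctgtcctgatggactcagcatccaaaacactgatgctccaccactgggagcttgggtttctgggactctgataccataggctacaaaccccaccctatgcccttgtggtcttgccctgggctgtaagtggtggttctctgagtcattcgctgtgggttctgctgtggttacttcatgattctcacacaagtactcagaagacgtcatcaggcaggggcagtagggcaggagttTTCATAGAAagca

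Effector genes formed a small group among the increases. Gzmb, the serine protease granzyme B, had a level of 7.33 in IL-2-treated and 5.06 in untreated CD25pos cells, a 4.82-fold difference, and Gzma, granzyme A, had 6.11 and 3.90, a 4.63-fold difference. Of the 14 measured cytotoxic genes these 2 were higher and 0 were lower, beside 0.997% and 0.352% of all genes. The list median was 0.14, with 13 of 14 members above zero, beside 5665 of all 11939 genes. Serpinb9, an inhibitor of granzyme B, differed by 0.58 and Nkg7, a granule membrane protein, by 0.50, whereas Prf1, the pore-forming perforin, differed by -0.48. Gzmb was also higher in GFPfoxp3 cells (1.18) and in GFPko cells, by at least 2.26-fold, since the untreated GFPko array lay below background. Gzma was higher in GFPfoxp3 cells (1.09) but had 3.19 and 3.15 in IL-2-treated and untreated GFPko cells, and untreated CD25neg cells had 5.41. Klrc1, which encodes the inhibitory receptor NKG2A, had 7.34 with IL-2 and 6.31 untreated. It differed by -0.08 in GFPko and 0.00 in GFPfoxp3 cells, where it lay below the array medians.

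Markers of other killer cells were read beside these genes. Of 9 measured NK cell markers, 7 lay at or above the array median in IL-2-treated and 8 in untreated CD25pos cells, their summed level on the linear scale was 178.7 and 157.2, and Gzma itself carries that rise. Without Gzma the sum was 109.6 with IL-2 and 142.3 untreated, and 6 of the 8 markers lay below zero. Ncr1, which defines NK cells, lay below the median on both arrays. Eomes, which CD8 and NK cells share, had 8.51 with IL-2 and 9.41 untreated. The 8 CD8 T cell markers had a summed linear level of 3815 with IL-2 and 4900 untreated, or 1255 and 1367 without Ccl5. Of the 7 markers besides Ccl5, 4 lay below zero, whereas Klrd1 differed by 0.54 and Gzmk by 0.38. The 7 markers of NKT and innate-like T cells had a summed linear level of 2736 with IL-2 and 2404 untreated, with 4 above zero. The 5 measured gamma delta T cell markers had 971.2 and 836.9. Trgv4, at 9.67 with IL-2 and 9.43 untreated, carries most of each sum. Zbtb16 had 6.87 and 6.44, whereas Cd163l1 had 4.68 with IL-2 and 5.52 untreated. Sox13 and Blk lay below the median on both arrays. A part of any of these cells in the granzyme differences was not tested.

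Nearly all measured mitosis genes were higher. Of 39 measured members 35 were higher and 0 were lower, beside 0.997% and 0.352% of all genes. All 39 lay above zero, between 0.38 and 2.16. The list's median difference was 1.68, beside -0.01 over all genes. It was 0.59 over the members read by their second brightest probe set, which 22 of the 39 have, 4 of them below background on both arrays. The median level of the list was 7.13 in IL-2-treated and 5.75 in untreated CD25pos cells, beside 3.63 in CD25neg cells. The members just short of 2-fold were Ect2 at 0.94 and Cdc20 at 0.80, and the lowest were Incenp at 0.55 and Foxm1 at 0.38. Apart from the genes with the largest differences, the cell cycle genes named below were picked by role after their values were seen.

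Ube2c, the ubiquitin-conjugating enzyme that works with the anaphase-promoting complex, had a level of 8.69 in IL-2-treated and 6.52 in untreated CD25pos cells, a 4.48-fold difference. Ccnb2, a B-type cyclin, had 7.98 with IL-2 and 5.96 untreated, and Cdk1, the kinase that mitotic cyclins activate, had 7.69 and 5.91. The mitotic kinases were higher as well. Plk1 had 6.29 with IL-2 and 4.24 untreated (4.12-fold), Aurka 6.28 and 4.24 (4.11-fold) and Aurkb 7.39 and 5.68 (3.26-fold). Of the spindle proteins, the motor Kif11 differed by 1.95, the microtubule-binding Nusap1 by 2.06, Tpx2 by 1.78 and the midzone bundler Prc1 by 1.84. At the kinetochore, where chromosomes meet the spindle, Cenpf differed by 1.89, Nuf2 by 1.77, Spc25 by 1.71 and Ndc80 by 1.08. Checkpoint genes that hold anaphase back until chromosomes attach were higher too, with Bub1 at 1.73, Ttk at 1.72 and Mad2l1 at 1.22. The other probe sets of Kif11 differed by 2.07 and 0.66, and that of Bub1, close to background, by -0.12 (3.13 with IL-2 and 3.24 untreated). Mki67, which encodes the proliferation marker Ki-67, had 10.95 with IL-2 and 9.16 untreated.

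Genes outside the list gave the largest differences of all. Depdc1b, which encodes a DEP domain protein, had a level of 6.64 in IL-2-treated and 3.42 in untreated CD25pos cells, a 9.37-fold difference and the largest of the 119. It differed by 1.73 in GFPfoxp3 and 0.99 in GFPko cells. Cdkn3, a phosphatase of cyclin-dependent kinases, had 6.29 with IL-2 and 3.89 untreated (5.26-fold). Ncapg, a condensin subunit, had 7.86 and 5.59 (4.82-fold), and the kinesin Kif18b had 6.28 and 4.21 (4.21-fold). The 2 brightest probe sets of Ncapg differed by 2.27 and 1.58.

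Fewer DNA replication genes were past 2-fold. Of 38 measured members 9 were higher and 0 lower, beside 0.997% and 0.352% of all genes. Above zero lay 36 of the 38, and the median difference was 0.55. Clspn, which carries checkpoint signals at stalled forks, had a level of 7.97 in IL-2-treated and 6.34 in untreated CD25pos cells, and its second probe set, close to background, differed by 0.25 (3.40 and 3.16). Rrm2, a subunit of ribonucleotide reductase, had 11.49 with IL-2 and 10.06 untreated, and the origin-licensing factor Cdc6 had 7.53 and 6.20. Tk1, thymidine kinase, had 8.11 and 6.79. Genes of G1 and S phase entry, which act before replication, were mostly within 2-fold. Of 20 G1 and S phase entry genes 1 was higher, beside 0.997% of all genes, and the list median was 0.31. The higher gene was E2f8, a repressor of the E2F family, at 8.21 with IL-2 and 6.73 untreated. E2f1 differed by 0.98 and the inhibitor Cdkn2c by 0.81, and Cdk6 by -0.07. Ccnd2, a D-type cyclin, had no common direction, since it differed by -0.37 on its brightest probe set and by 0.23 and 0.57 on others far above background.

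**Figure D2:**
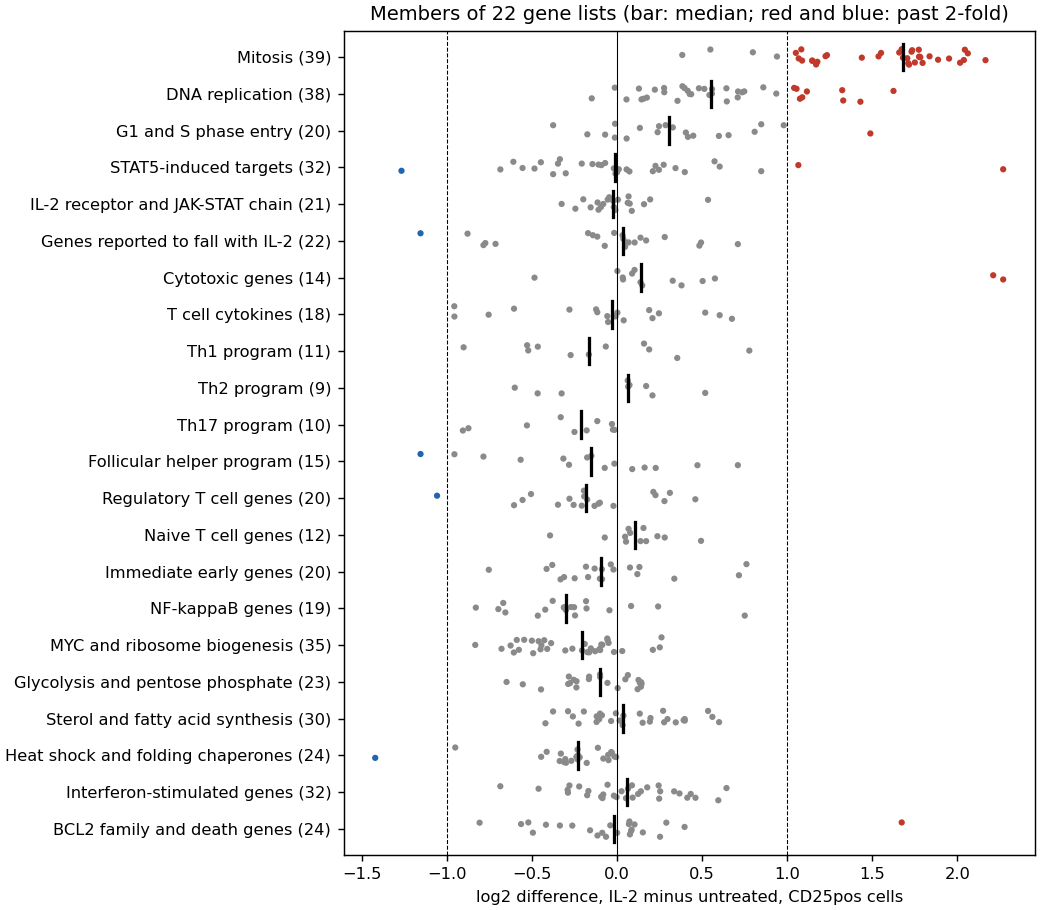
Log2 difference, IL-2-treated minus untreated CD25pos cells, of each measured member of 22 gene lists, with the number measured in brackets, the median as a bar and dashed lines at a 2-fold difference. Red points are higher and blue points lower genes past 2-fold. The mitosis median is 1.68 and that of DNA replication 0.55, whereas the STAT5 list is centred at -0.01.

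Genes of the mitosis list share sequence features as well. Promoters of late cell cycle genes are known to carry the cell cycle genes homology region (CHR, letters TTTGAA) with CCAAT boxes, which the DREAM and MuvB complexes and NF-Y bind. These letters were searched on both strands in the same windows, a choice made after the values were seen, and overlapping CCAAT matches on opposite strands were each counted. The CHR letters stood in 12.4% of all 9689 promoters, and in 74.2% of the higher mitosis genes (23 of 31), 48.9% of all higher genes (46 of 94) and 11.8% of lower genes (4 of 34). CCAAT stood in 38.9% of all promoters and in 71% of those of higher mitosis genes. Both together stood in 5.04% of all promoters and in 64.5% of those of higher mitosis genes (20 of 31). Over all measured mitosis genes, higher or not, CHR stood in 75.8% and both together in 66.7% (22 of 33). The higher genes make up 31 of these 33, so the shares describe the list and cannot show whether its higher members differ from the rest. The STAT5 letters stood in 1 of the 31 promoters of higher mitosis genes.

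Promoters of 4 mitosis genes with large differences that hold both elements are printed below to show their spacing, with CHR and CCAAT letters of either strand in capitals. Ube2c lies at chr2:164769679-164769978 on the plus strand, and Plk1 at chr7:122159185-122159484 on the plus strand. Aurka lies at chr2:172370521-172370820 and Ccnb2 at chr9:70421505-70421804, both on the minus strand. Ube2c holds 6 CCAAT matches and 1 CHR match, Plk1 holds 1 of each, Aurka 2 and 1, and Ccnb2 3 and 2.
Ube2c: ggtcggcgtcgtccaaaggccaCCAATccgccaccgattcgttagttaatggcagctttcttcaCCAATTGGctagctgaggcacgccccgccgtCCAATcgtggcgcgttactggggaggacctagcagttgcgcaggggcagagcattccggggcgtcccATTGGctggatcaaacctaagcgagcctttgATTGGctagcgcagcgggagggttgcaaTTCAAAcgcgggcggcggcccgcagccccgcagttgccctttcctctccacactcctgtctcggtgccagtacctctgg
Plk1: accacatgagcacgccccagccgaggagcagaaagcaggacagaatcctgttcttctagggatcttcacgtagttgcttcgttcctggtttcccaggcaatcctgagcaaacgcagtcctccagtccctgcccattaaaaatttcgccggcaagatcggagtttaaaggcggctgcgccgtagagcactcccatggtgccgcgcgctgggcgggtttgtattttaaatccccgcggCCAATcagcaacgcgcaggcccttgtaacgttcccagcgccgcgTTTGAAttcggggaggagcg
Aurka: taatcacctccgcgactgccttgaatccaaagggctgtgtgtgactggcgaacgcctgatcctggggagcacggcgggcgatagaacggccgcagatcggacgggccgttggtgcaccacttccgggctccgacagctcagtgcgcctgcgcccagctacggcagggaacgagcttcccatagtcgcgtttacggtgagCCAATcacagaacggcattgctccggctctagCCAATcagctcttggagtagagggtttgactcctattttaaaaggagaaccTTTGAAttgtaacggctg
Ccnb2: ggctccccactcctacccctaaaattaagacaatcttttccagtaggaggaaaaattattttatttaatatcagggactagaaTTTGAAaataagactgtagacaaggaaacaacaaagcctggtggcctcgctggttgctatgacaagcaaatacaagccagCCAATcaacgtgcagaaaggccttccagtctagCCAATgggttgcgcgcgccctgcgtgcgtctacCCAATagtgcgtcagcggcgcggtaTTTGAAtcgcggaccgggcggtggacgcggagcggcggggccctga

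The 28 higher genes without an assigned cell cycle role had a median difference of 1.17. Besides Depdc1b, Gzmb and Gzma they included Rgs1, which dampens G protein signals of chemokine receptors and had a level of 10.55 in IL-2-treated and 8.82 in untreated CD25pos cells (3.30-fold). Rgs1 was higher in GFPko (1.89) and GFPfoxp3 cells (1.46) as well. Anxa2, a calcium-dependent membrane-binding protein, had 8.93 with IL-2 and 7.60 untreated (2.53-fold), and its other 2 probe sets lay below background. Il10ra, the ligand-binding chain of the IL-10 receptor, had 6.51 and 5.42, and it was higher in GFPko cells (1.76) and GFPfoxp3 cells (1.01). Ddit4, an inhibitor of mTORC1 induced by stress and glucocorticoids, had 11.84 with IL-2 and 10.67 untreated. In GFPko cells it ran the other way, at 9.48 with IL-2 and 12.23 untreated. Il10ra was named after its values were seen.

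**Figure D3:**
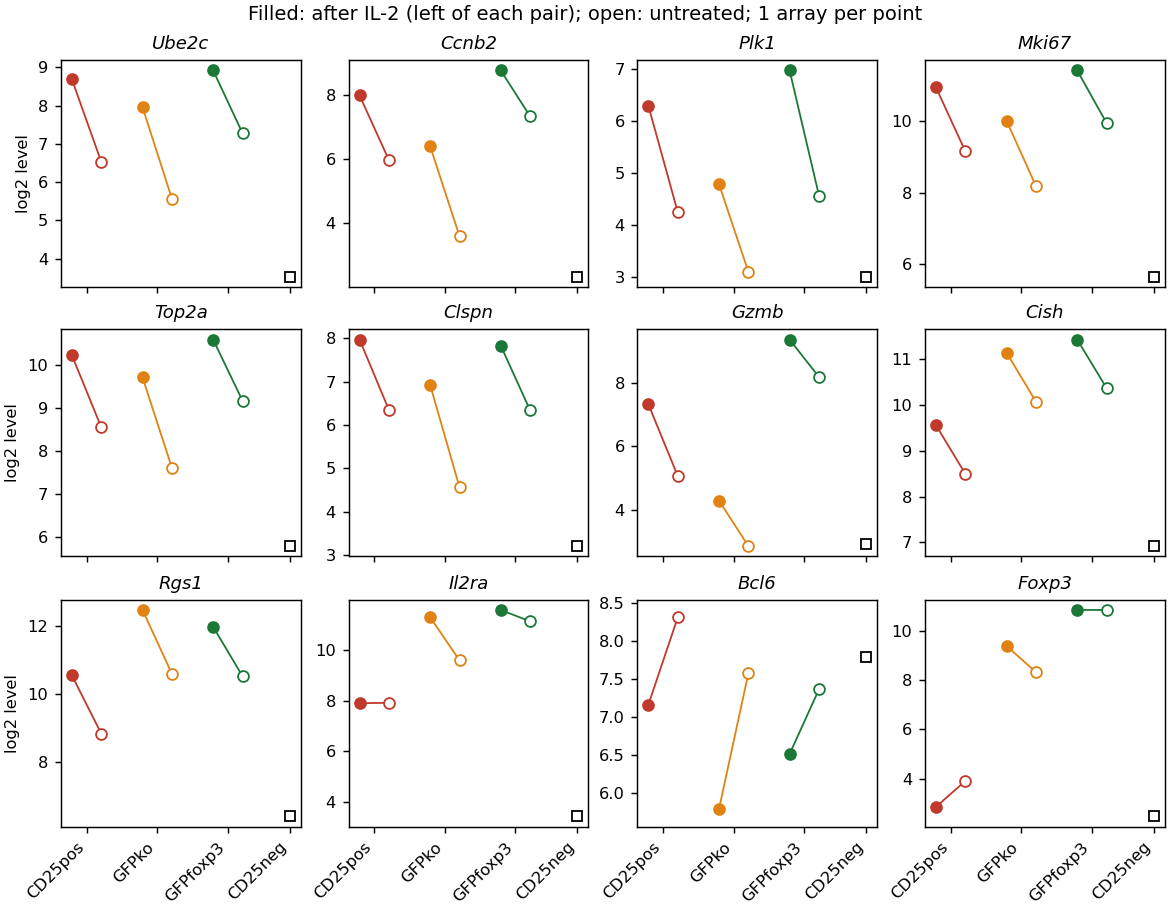
Log2 level of 12 genes on each array, with IL-2-treated cells as filled points left of untreated cells as open points, and untreated CD25neg cells as open squares. Axes differ between panels and do not start at 0. Ube2c, Ccnb2, Plk1, Mki67, Top2a, Clspn, Gzmb, Cish and Rgs1 are above the untreated array in each of the 3 populations, Il2ra reads 7.90 and 7.91 in CD25pos cells, and Bcl6 is below the untreated array in each.

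Of 22 measured genes reported to fall with IL-2, 1 was at least 2-fold lower here, beside 0.352% of all genes. None was higher, 10 lay below zero and 12 above, and the median difference was 0.03. The lower gene was Bcl6, the transcriptional repressor that directs follicular helper cells, with a level of 7.16 in IL-2-treated and 8.31 in untreated CD25pos cells, a 2.22-fold difference. It was lower in GFPko cells too (-1.80) and differed by -0.85 in GFPfoxp3 cells. Klf4 (-0.88), Cxcr5, the chemokine receptor that takes cells into follicles (-0.78), and Id3 (-0.71) lay below zero without passing 2-fold. Il7r, the IL-7 receptor chain, had 13.14 with IL-2 and 13.07 untreated, beside a difference of -0.94 in GFPko cells.

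Of the other T cell programs, the follicular helper list was read first. Of 15 follicular helper genes only Bcl6 was past 2-fold, with Il21, a cytokine of these cells, at -0.95 and a list median of -0.15. None of 18 measured T cell cytokine genes was past 2-fold, and with 0.997% of all genes higher and 0.352% lower, a count of 0 says little of a list of this size. Il2 itself had a level of 6.12 in IL-2-treated and 7.08 in untreated CD25pos cells, and the IL-6 family cytokine Lif had 5.98 and 5.31. The lists of Th1, Th2 and Th17 genes had medians of -0.17, 0.07 and -0.21 and no member past 2-fold. Eomes at -0.90 and Tbx21, which encodes T-bet, at -0.53 were the lowest transcription factors of type 1 responses named here, and Ccr6 at -0.91 was the lowest Th17 gene. Of 20 regulatory T cell genes Foxp3 alone was lower, by at least 1.79-fold, since its treated array lay below background. The list median was -0.18.

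The lists of growth and stress genes had medians below zero or near it. Of 35 MYC target and ribosome biogenesis genes 31 lay below zero, with a median of -0.21 and Ppan lowest at -0.83, and none was past 2-fold. Over all genes 6274 of 11939 lay below zero. All 24 measured heat shock and folding chaperones lay below zero, with a median of -0.23, which became -0.21 with arrays centred on their own median and -0.25 with quantile normalization. Hspa1b, the inducible HSP70, was the one past 2-fold, with 5.63 with IL-2 and 7.05 untreated, and its other 2 probe sets differed by -0.89 and, with the treated array below background, by at least 2.63-fold in the same direction. Hspa1a and Hspa1b are nearly identical copies, so probe sets can catch transcripts of both. Hsph1, a co-chaperone of the HSP70 family, differed by -0.95. The NF-kappaB genes had a median of -0.30, with Nfkb2 at -0.83 and Nfkbiz at 0.75. The ER chaperone and unfolded protein response genes had a median of 0.06, with 14 of 24 above zero. Glycolysis (-0.10), respiratory chain (-0.02), sterol and fatty acid synthesis (0.04), ribosomal protein (-0.04) and proteasome (0.03) genes lay near zero, with no member past 2-fold. Across the 42 lists besides the 3 cell cycle lists, median differences ran between -0.36 (chemokines) and 0.14 (cytotoxic genes). Of the 45 pathway lists 28 had no member past 2-fold. With 0.997% of all genes higher and 0.352% lower, a count of 0 says little of any of these lists.

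Of the 42 lower genes 6 belonged to a list (14.3%, beside 7.08% of all genes), and these were Gpr15, Tyrobp, Foxp3, Bcl6, Rgs16 and Hspa1b. Snai3, a zinc finger repressor, had the largest decrease, with a level of 3.63 in IL-2-treated and 5.67 in untreated CD25pos cells, a 4.12-fold difference. On the other arrays of sorted cells it lay between 3.21 and 3.51, so the untreated CD25pos array stood apart from the rest. Gm36723, a predicted gene, had 4.59 with IL-2 and 6.13 untreated, and Scarb1, a receptor for high-density lipoprotein, had 4.50 and 5.88. Lad1, a basement membrane anchoring protein in epithelia, had 7.44 with IL-2 and 8.77 untreated. The others among the 12 largest were Hspa1b, Arrdc4, Akr1c18, Fam222b, Pggt1b, Ptpn23, Rgs16 and Agfg2, with differences between -1.42 and -1.25. Of the 42, 11 had a treated array below background. Agfg2 was the only one of these 12 that was also past 2-fold in the same direction in another population, at -1.32 in GFPko cells.

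Where a gene had a second probe set above background on both arrays, the pair showed how far 2 probe sets of a gene disagreed. Both were read on the same 2 arrays, so their gap holds nothing of the spread between mice or arrays. Over 4643 genes with such a pair the median gap between the 2 differences was 0.20, and 1.96% of gaps were at least 1. Of the 119 higher genes 39 had a pair, and the second probe set had the same sign in 37 and was itself at least 2-fold higher in 16. Of the 14 higher mitosis genes with a pair, 13 had the same sign and 6 were at least 2-fold higher in the second. Ccna2, which encodes cyclin A2, had 1.77 and 1.78 and Top2a, a topoisomerase, 1.68 and 0.12. Of the 42 lower genes 13 had a pair, 5 had the same sign in the second probe set and 0 were at least 2-fold lower there. Hspa1b and Scarb1 (-0.56) were the lowest of these second probe sets. The second probe sets of Arrdc4, Fam222b, Pggt1b and Rgs16 lay above zero.

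**Figure D4:**
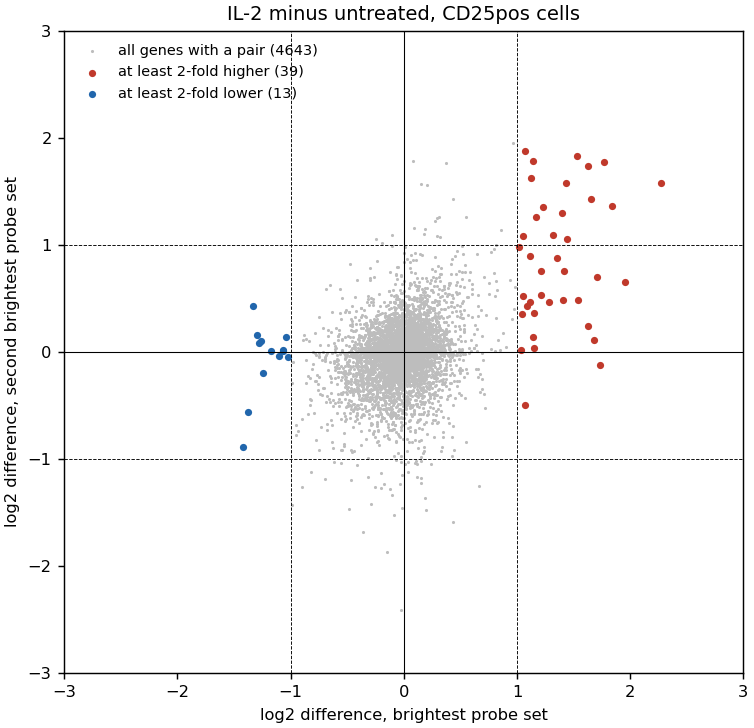
Log2 difference, IL-2-treated minus untreated CD25pos cells, of the second brightest probe set (vertical axis) against the brightest (horizontal axis) for 4643 genes with both probe sets above background on both arrays. Of 39 higher genes (red) 37 lie above zero on the vertical axis, and of 13 lower genes (blue) none lies below -1 there.

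The IL-2 differences in the other 2 populations share no array with that of CD25pos cells, although all arrays were normalized together. The 3′ minus 5′ difference of Actb was also smaller with IL-2 there, at 2.76 and 3.69 in IL-2-treated and untreated GFPko cells. In IL-2-treated and untreated GFPfoxp3 cells it was 2.70 and 3.07. That of Gapdh was 5.265 and 5.939 in GFPko cells, but nearly equal in GFPfoxp3 cells, at 5.532 and 5.55. The part of RNA quality in the shared genes was not tested. GFPko cells had 348 higher genes (2.91%) and 239 lower genes (2%), and GFPfoxp3 cells had 207 higher (1.73%) and 26 lower (0.218%). Of the 119 genes higher in CD25pos cells 81 were higher in GFPko cells, which is 68.1% of the CD25pos and 23.3% of the GFPko genes. With GFPfoxp3 cells 95 were shared, 79.8% of the CD25pos and 45.9% of the GFPfoxp3 genes. All 3 populations shared 78, and 21 were past 2-fold in neither of the others. Of the 42 lower genes 3 were also lower in GFPko cells (Bcl6, Agfg2 and Gpr15), which is 7.14%, beside 2% of all genes. Of these, Gpr15 was only at least 1.15-fold lower in CD25pos cells, since its treated array lay below background. In GFPfoxp3 cells 0 were lower, and with 0.218% of all genes lower there, that count says little. The other 39 were lower in neither.

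The mitosis list had a median difference of 1.68 in CD25pos, 1.67 in GFPko and 1.49 in GFPfoxp3 cells, and DNA replication genes had 0.55, 0.77 and 0.88. The STAT5 list had -0.01 in CD25pos, 0.29 in GFPko and 0.16 in GFPfoxp3 cells, with 2, 10 and 5 members higher. The regulatory T cell list had -0.18 in CD25pos, 0.41 in GFPko and 0.05 in GFPfoxp3 cells. Of the 348 genes higher in GFPko cells 145 differed by less than 0.25 in either direction in CD25pos cells, as did 32 of the 207 genes higher in GFPfoxp3 cells. These are 41.7% and 15.5%, beside 71.8% of all genes. Across the 11939 genes the CD25pos differences had a Pearson correlation of 0.32 with those of GFPko cells and 0.40 with those of GFPfoxp3 cells, where genes are not independent replicates. With 1 array per group, whether the populations differ in their response could not be tested.

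**Figure D5:**
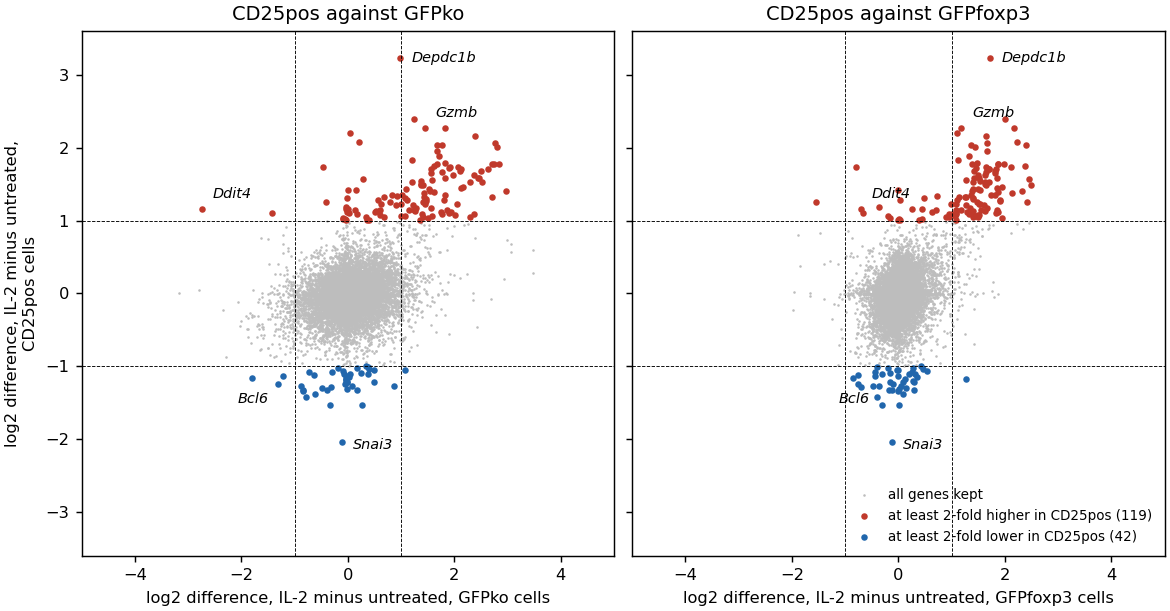
Log2 difference, IL-2-treated minus untreated, in CD25pos cells (vertical axis) against the same in GFPko cells (left panel) and GFPfoxp3 cells (right panel), for 11939 genes with dashed lines at a 2-fold difference. Of the 119 genes higher in CD25pos cells (red), 81 lie past 2-fold to the right in the left panel and 95 in the right panel, and of the 42 lower genes (blue) 3 and 0 lie past 2-fold to the left.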

How the data were processed

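Per the series' design text, the authors normalized the 10 arrays together, and the log2 values they deposited cover 45101 probe sets. Per the labels' protocols, RNA was extracted with Stat-60 and made into biotinylated cRNA with MessageAmp II in 2 rounds of amplification, which start from the 3′ end and shorten the product. No source used here names the software, the background correction or the probe summary. The log2 scale of the deposited values was inferred from their range, with array medians between 3.04 and 3.22. With 1 array per group, the number of arrays limits the precision, and no SD or test across samples was possible.

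GEO's platform annotation gave the gene of each probe set, with current symbols taken through Entrez IDs from GRCm38.p6. Of the probe sets 34958 had 1 gene, of which 34754 matched, 932 had several genes and 9211 had none listed. Those with 1 gene were kept where at least 1 array reached its median, and the probe set with the highest mean stood for its gene, which left 11939 genes. Where the lower array was below its median, a fold sets the brighter array against that median and is given as "at least".

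Named genes were the 12 largest increases and decreases with values raised to the median, up to 4 members per list, all members of the receptor and STAT5 lists, and Foxp3, Il2ra, Cd4 and Pde3b. The text says where others were picked later. The 2 arrays, the 45 pathway lists and the 11 lists of other cells' markers were chosen with earlier results of these data known. The CHR and CCAAT motifs and the assigned roles were chosen after the values were seen. Alternatives changed the scaling, the filter, the probe set, the floor and the threshold. Computations used Python 3.11.15, pandas 2.3.3, numpy 2.4.6 and matplotlib 3.10.9, and were tested on simulated data.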

Additional observations from a re-analysis of the deposited data

Results flagged for a closer look

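Ddit4, Foxp3, Smo, Stard6 and Tbrg3 had measured differences past 2-fold in opposite directions in CD25pos cells and in another population. Each group has 1 array, so the differences between populations were not tested. For Foxp3, Stard6 and Smo one of the differences involves an array below background and is only a bound short of 2-fold. Ddit4, an mTORC1 inhibitor, differed by 1.16 in CD25pos and -2.75 in GFPko cells. Foxp3 had a measured difference of -1.06 in CD25pos cells (at least 1.79-fold lower) and 1.07 in GFPko cells. Smo, the signal transducer of the Hedgehog pathway, had -1.18 in CD25pos and 1.27 in GFPfoxp3 cells (at least 1.56-fold higher). Stard6 had 1.26 in CD25pos (at least 1.85-fold higher) and -1.54 in GFPfoxp3 cells, and Tbrg3 by 1.10 in CD25pos and -1.43 in GFPko cells. Among the 10143 probe sets that name no gene or several, which the gene table leaves out, 24 were at least 2-fold higher and 25 at least 2-fold lower after IL-2 in CD25pos cells.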

How the results depend on the processing

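Of 11 alternatives, those to the scaling and the filter left the count of higher genes within 1.5 times of 119 and the count of lower genes within 1.5 times of 42. Read by the second brightest probe set, which 52 of the 119 higher and 16 of the 42 lower genes had, 42 genes were higher, and 19 of the 119 and 0 of the 42 were shared. The mitosis median was then 0.59, against up to 1.70 under the other alternatives, and Arrdc4 (0.43), Fam222b (0.16), Pggt1b (0.080) and Rgs16 (0.11) turned positive. Of those 52 and 16 probe sets, 39 and 14 lay above background on both arrays. The cause was not tested, and positions of probes within transcripts were not used. With both arrays raised to their 60th percentile, 22 genes were lower, since dim values lose their difference by construction. At 3-fold, 34 genes were higher and 1 was lower, and at 1.5-fold 303 were higher and 327 lower. The mean of all kept probe sets of a gene shared 88 of 119 and 27 of 42, and leaving out probe sets marked for cross-matching shared 87 and 34. Of the median differences of gene lists under these alternatives, 494 moved by less than 1.5-fold and 5 by more. Dim genes, 11 of them among the lower ones, have only a bound. No paired analysis was possible because each group has 1 array and no result comes from a test.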

Other observations

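Pde3b, the phosphodiesterase gene of the series title, had a level of 11.63 in IL-2-treated and 11.62 in untreated CD25pos cells. It had 9.92 and 10.22 in IL-2-treated and untreated GFPko cells, and 5.90 and 6.06 in IL-2-treated and untreated GFPfoxp3 cells. Among the probe sets outside the gene table, the largest increase after IL-2 in CD25pos cells was 2.24 (6.99 with IL-2 and 4.76 untreated), in a probe set that differed by -1.71 in GFPko and -2.01 in GFPfoxp3 cells. The largest decrease was -2.19 (3.50 with IL-2 and 5.69 untreated), beside -0.87 in GFPko and 0.14 in GFPfoxp3 cells.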
